A study of Homo sapiens with 8 samples.

Results

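The genes described here are 6 transcription factors that set intestinal and wider endodermal identity, CDX1, CDX2, FOXA1, FOXA2, HNF4A and GATA6. They were chosen by name, with earlier results of these data known. Every transcript of theirs with a value in either of the authors' deposited tables of mRNA stability was taken, through its RefSeq accession. This gave 4 transcripts of 3 genes, of 22468 transcripts in all: 1 of CDX2, 2 of FOXA2 and 1 of HNF4A. CDX1, FOXA1 and GATA6 had no value and were not analysed here. The cells were SW480, an established line that is known as a colorectal adenocarcinoma line, although the series text calls it a breast cancer line. They expressed an shRNA that was either a control or directed at RBMS1, a protein that binds RNA, and each was sampled at 0 h without drug and after 9 h of alpha-amanitin, which blocks RNA polymerase II. The series text gives a dose of 10 µg/mL and 2 RBMS1 shRNA clones, whereas the protocol of the samples gives 1 of those clones. Each of the 4 groups held 2 libraries of total RNA, and nothing in the labels says that they came from separate cultures.

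CDX1 and CDX2 are homeobox proteins that specify hindgut epithelium and are kept into adult life in the intestine. FOXA1 and FOXA2 are forkhead proteins that open compacted chromatin in gut, liver and pancreas, HNF4A is a nuclear receptor of enterocytes and hepatocytes, and GATA6 is a zinc-finger factor of endoderm. These proteins bind many of the same enhancers and each other's genes, and CDX2 is used in pathology as a marker of colorectal origin. Messenger RNAs of regulatory proteins often turn over fast, so a block of transcription lets their loss be followed.

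Each value was 1 log fold change per transcript and cell population, 9 h over 0 h, read as log2, with the libraries of a group already combined by the authors. Neither the log base nor the direction was stated, and the direction was read from MYC, FOS and JUN, short-lived mRNAs at -1.44, -1.61 and -1.01 in the authors' deposited table for control cells. There were no values per library, no depth and no p-values, so no value below could be set against replicate error and none was tested. In place of a test, the share of all transcripts past the same size is given. Each value is set against the other transcripts of its libraries, and a loss shared by all mRNAs does not show in them. Of 9 markers of colorectal epithelium 7 had a value, namely CDX2, EPCAM, CDH1, KRT8, KRT18, KRT19 and VIL1. Of 21 markers of other cell types 7 had one, namely ACTA2, DES, CD68, LYZ, SERPINA1, SNAP25 and TUBB3, and no fibroblast or endothelial marker did. A fold change between 2 times does not show a level, so the epithelial identity of the cells was checked only as far as this listing goes.

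The mRNA models came from GENCODE release 29 (GRCh38), whereas the values belong to RefSeq transcripts, whose ends can differ. RefSeq places the CDX2 gene at chr13:27960918-27969315. The CDX2 model runs past that span at its 5′ end and stops short of it at its 3′ end. Spans, lengths and motif matches below are those of the models. The CDX2 transcript NM_001265 runs over chr13:27962137-27971139 on the minus strand, with 3 exons and a 3′UTR of 978 bases. The FOXA2 transcripts lie on the minus strand of chromosome 20, NM_021784 over chr20:22581005-22584463 with 2 exons and NM_153675 over chr20:22581005-22585455 with 3 exons. They share 2220 bases, which is 91.7% of the former and 92.5% of the latter, and their 3′UTR of 845 bases is identical. Only the 5′ ends separate them, 202 bases of NM_021784 and 181 bases of NM_153675. The windows below show this join, 15 bases found in that transcript alone in lower case and the first 15 shared bases in capitals.
FOXA2 NM_021784: gcactcggcttccagTATGCTGGGAGCGGT
FOXA2 NM_153675: gcgggcgagttaaagTATGCTGGGAGCGGT
The shared bases sit at chr20:22584247-22584261. The lower-case bases of NM_021784 are adjacent to them at chr20:22584262-22584276 and those of NM_153675 end a separate first exon at chr20:22585275-22585289. The protein of NM_021784 begins 6 residues earlier, at 463 residues against 457, and the rest of the reading frame is the same. Reads from the shared part cannot be assigned to either transcript by sequence.

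AU-rich and U-rich stretches in 3′UTRs are known binding places of proteins that change mRNA stability, and RBMS proteins are known to bind AU repeats. The 3′UTRs were searched on the mRNA strand for ATTTA, the AU-rich pentamer, for TATTTAT, which contains it, for ATATA, an RBMS-type pentamer, for TGTANATA, the Pumilio element, and for TTTTTTT. The matches in FOXA2 and CDX2 are printed with 10 bases on either side and the match in capitals.
FOXA2 AU-rich, chr20:22581272-22581296: ggtccgattaATTTAtggtttctgc
FOXA2 long AU-rich, chr20:22581249-22581275: ctgcgtgcttTATTTATggcttataaa
FOXA2 RBMS-type, chr20:22581616-22581640: cccacgttctATATAaggaggaaaa
FOXA2 RBMS-type, chr20:22581592-22581616: acgggaaagaATATAaagttaaaaa
FOXA2 RBMS-type, chr20:22581118-22581142: ggcttacaaaATATAcaggcttgga
FOXA2 U run, chr20:22581514-22581540: cagattctgaTTTTTTTgttgttgttg
CDX2 RBMS-type, chr13:27962921-27962945: gcctcaagaaATATActctcccaga
The FOXA2 3′UTR held 2 ATTTA, 1 of them within TATTTAT, 3 ATATA and 1 TTTTTTT. Among 2064 3′UTRs within 20% of its length, 45.3% held at least 2 ATTTA, 23.1% held TATTTAT and 17.5% held at least 3 ATATA. The CDX2 3′UTR of the model held 1 ATATA and none of the other motifs. The RefSeq gene reaches further at the 3′ end, and that part was not searched. The FOXA2 3′UTR held no Pumilio element either. Of 2087 3′UTRs within 20% of the length of the CDX2 3′UTR, 74.8% held an ATTTA and 57.6% an ATATA. Over all 17679 3′UTRs of coding transcripts in the tables, 64.2% held ATTTA, 28.1% TATTTAT, 52.4% ATATA, 23.3% TGTANATA and 41.8% TTTTTTT. A match is a stretch of letters and not a shown binding site. The 3′UTR of the HNF4A model is only 6 bases long, too short to search. The HNF4A gene in RefSeq runs on past the end of that model, to chr20:44434596.

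**Figure D1:**
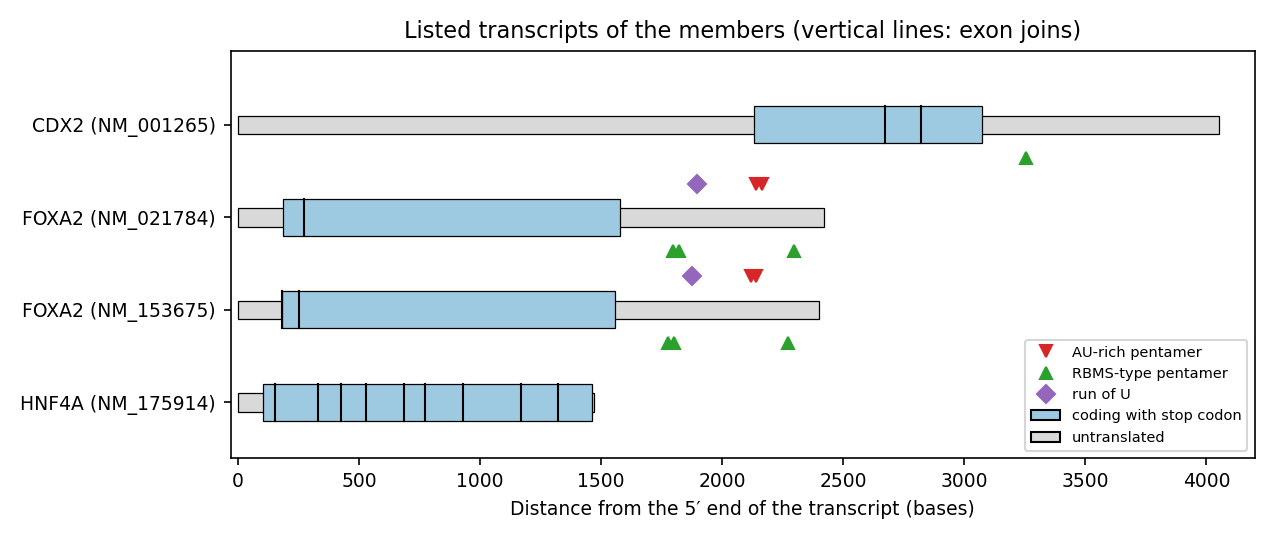
Maps of the 4 transcripts from GENCODE 29, drawn to scale from the 5′ end (x axis, bases). Blue boxes are coding sequence with the stop codon, grey boxes untranslated sequence, vertical lines exon joins and symbols the 3′UTR matches. The FOXA2 maps carry the same matches in the 3′UTR and differ at the 5′ end, while CDX2 carries 1 match.

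In the authors' deposited tables CDX2 mRNA was at -2.06 with the control shRNA and -2.01 with the RBMS1 shRNA. This corresponds to 24.0% and 24.9% of its 0 h level, relative to the rest of each library. Among control values 818 transcripts (3.84%) lay lower, and among knockdown values 795 (3.88%), so CDX2 had almost the same place in both. The difference, the knockdown value less the control value and centred on the median of all transcripts (-0.02), was 0.07, and 83.6% of the 19334 transcripts in both tables had a larger difference in size. For context, of the 335 transcripts in both tables between -3 and -2 in control cells, 180 (53.7%) were at -1 or below in knockdown cells.

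FOXA2 gave the most extreme values of the set, and its transcripts disagreed. In the authors' deposited tables NM_021784 stood at -7.91 with the control shRNA and -8.58 with the RBMS1 shRNA. Relative to the rest of each library, this is 0.416% and 0.261% of the 0 h level. Only 121 control and 66 knockdown transcripts lay lower. NM_153675 had a value in the knockdown cells alone, 1.90 in the authors' deposited table. This is 373% of the 0 h level on the same relative scale, which does not show a rise in amount. Of knockdown transcripts 96.6% lay lower. So within the knockdown cells a pair of transcripts that share most of their bases and the whole 3′UTR stood on opposite sides of 0.

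Neither feature of FOXA2 is unique to it in these tables. Of 4729 genes with at least 2 transcripts in the knockdown table, 436 (9.22%) had 1 transcript at -1 or below and another at 1 or above. Values at -7 or below made up 0.778% of the control table and 0.694% of the knockdown table. Of the 95 transcripts in both tables that were at -7 or below in control cells, 17 (17.9%) were also there in knockdown cells, NM_021784 of FOXA2 among them, while 42 (44.2%) were at 0 or above. The tables give no abundance, so whether FOXA2 rests on few reads was not tested. The centred difference of NM_021784 was -0.65, and 27.0% of transcripts had a larger one in size.

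HNF4A was represented by NM_175914, chr20:44355700-44429671 on the plus strand with 10 exons, at -0.55 in control cells in the authors' deposited table. That is 68.2% of the 0 h level, relative to the rest of the library. Of control transcripts 26.0% lay lower, so among the 3 genes HNF4A was nearest the middle of the table. This transcript starts at the upstream of the known pair of HNF4A promoters, called P2. Transcripts from the downstream promoter, P1, such as NM_000457, start 45584 bases further on in GENCODE 29 and had no value. RefSeq has 10 curated HNF4A transcripts, 1 of which had a value in control cells and none in knockdown cells, so no comparison between the populations was possible.

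**Figure D2:**
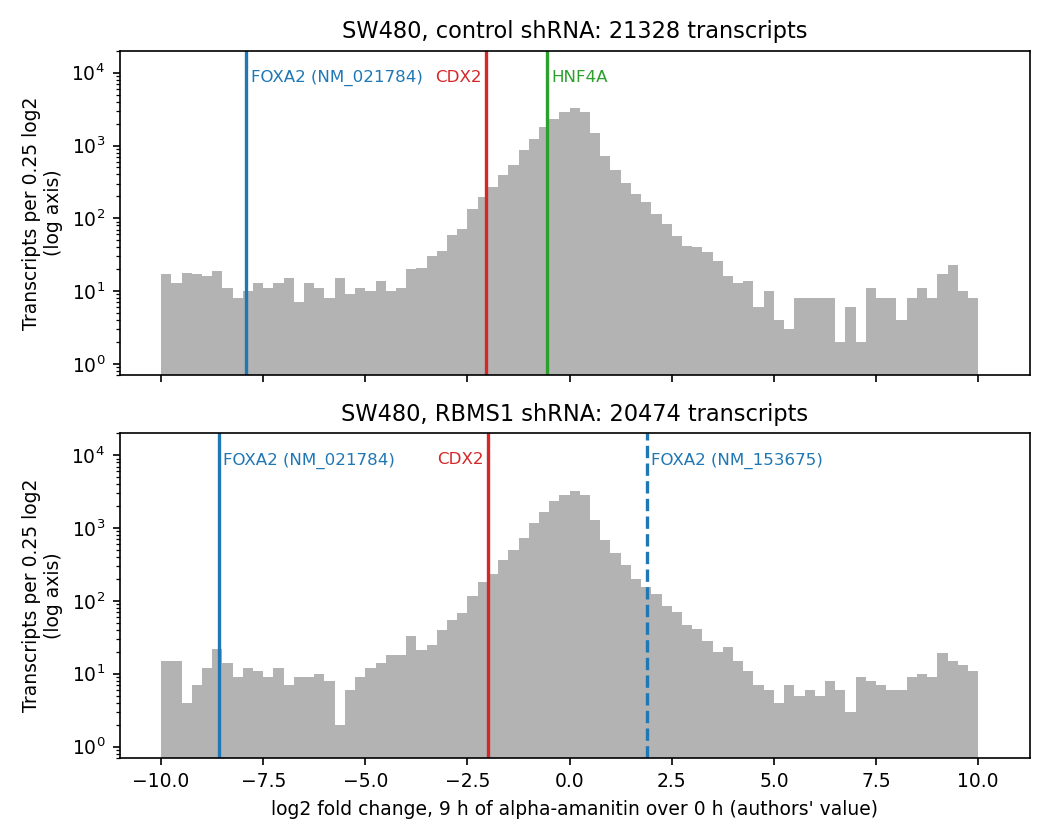
Histograms of all values in control cells (top) and RBMS1 knockdown cells (bottom), with log2 fold change on the x axis and the number of transcripts on a log y axis. Vertical lines mark the members: CDX2 lies in the lower shoulder at -2.06 and -2.01, HNF4A near the middle, and the FOXA2 transcripts in the far lower tail and, dashed, on the upper side.

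In control cells 2 of the 3 member transcripts, CDX2 and FOXA2 NM_021784, were at -1 or below, where 13.8% of all transcripts were, and none was at 1 or above. The median was -2.06, beside -0.04 over all 21328. In knockdown cells the same transcripts, 2 of 3, were at -1 or below beside 12.9% of all, and FOXA2 NM_153675 was at 1 or above beside 8.65% of all. Neither of the 2 transcripts in both tables had a centred difference of 1 or more in size, where 17.6% of all did. With so few transcripts these counts describe the named mRNAs and no wider group. Counted with the FOXA2 transcript nearest 0 alone, 1 of 2 genes was at -1 or below in knockdown cells. The share of all genes under that rule was not worked out, and the shares per transcript above do not stand in for it.

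The closest relatives add little, since of 8 family paralogs (CDX4, FOXA3, HNF4G and GATA1 to GATA5) only GATA2, a zinc-finger factor best known from blood, had a value. In the authors' deposited tables its value was -0.72 with the control and -0.60 with the RBMS1 shRNA. None of 8 symbols searched for neighbouring or antisense noncoding genes, such as GATA6-AS1, HNF4A-AS1 and LINC00261, had a value. Whether each symbol is in the annotation used was not checked, and no share over all noncoding genes was worked out.

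A wider list of 44 intestinal and endodermal transcription factors, drawn up with earlier results of these data known, had 25 genes with a value. In control cells 16 of their 34 transcripts were at -1 or below, which is 47.1% beside 13.8% of all, and 3 were at 1 or above beside 8.32%. In knockdown cells it was 16 of 34, beside 12.9% of all, and these were not all the same transcripts. SOX9, for example, counted in control cells alone and a KLF5 transcript in knockdown cells alone. The medians were -0.83 and -0.88, beside -0.04 and -0.03 over all transcripts. By the mean of both populations, over transcripts with a value in both, the lowest genes were MYB and PRDM1. MYB, a factor of crypt progenitors, had values of -2.07 and -2.37 for control and knockdown cells in the authors' deposited tables. PRDM1, a transcriptional repressor known from the fetal intestine, had values of -1.86 and -2.34 in the authors' deposited tables. These were also the genes of the lists nearest to CDX2 over both values, at distances of 0.37 and 0.39 on the log2 scale. The vitamin D receptor VDR, picked after seeing the values, had 3 transcripts, and all 3 were at -1 or below in both populations. PPARG also had 3, all above -1 in both populations, and the share of genes like VDR was not worked out. No gene of the lists lay as close to FOXA2 NM_021784 as MYB and PRDM1 did to CDX2: the nearest, a VDR transcript, was 8.03 away.

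By the same mean, the highest genes of that list were PPARG and ELF3. PPARG, a nuclear receptor of lipid metabolism and colonocyte maturation, had values of 0.47 and 0.04 as means of 3 transcripts in the authors' deposited tables. ELF3, an epithelial ETS factor, had values of -0.33 and 0.61 in the authors' deposited tables, and by the mean over shared transcripts its centred difference, 0.96, was the highest of the list. SOX9, a crypt factor, followed at 0.70 by that measure. Both lie under the size of 1, while the highest single transcript, IRX5 NM_001252197, had 1.72. The lowest mean differences belonged to EHF and IRX5, whose transcripts lay on both sides of 0 in control cells. Both had a transcript that changed sign between the populations, which FOXA2 NM_021784 did not. EHF is another epithelial ETS factor. In the authors' deposited tables its transcript NM_001206616 stood at 6.30 with the control and -7.28 with the RBMS1 shRNA. Its other transcript in both tables, NM_012153, was below 0 in both. IRX5, a homeobox factor, had transcripts at 3.35 and -1.49 in control cells of the authors' deposited tables and, in the same order, at -2.74 and 0.22 after knockdown. Over the list, 5 of 32 transcripts in both tables had a centred difference of 1 or more in size, 15.6% beside 17.6% of all, so this share is near the background.

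**Figure D3:**
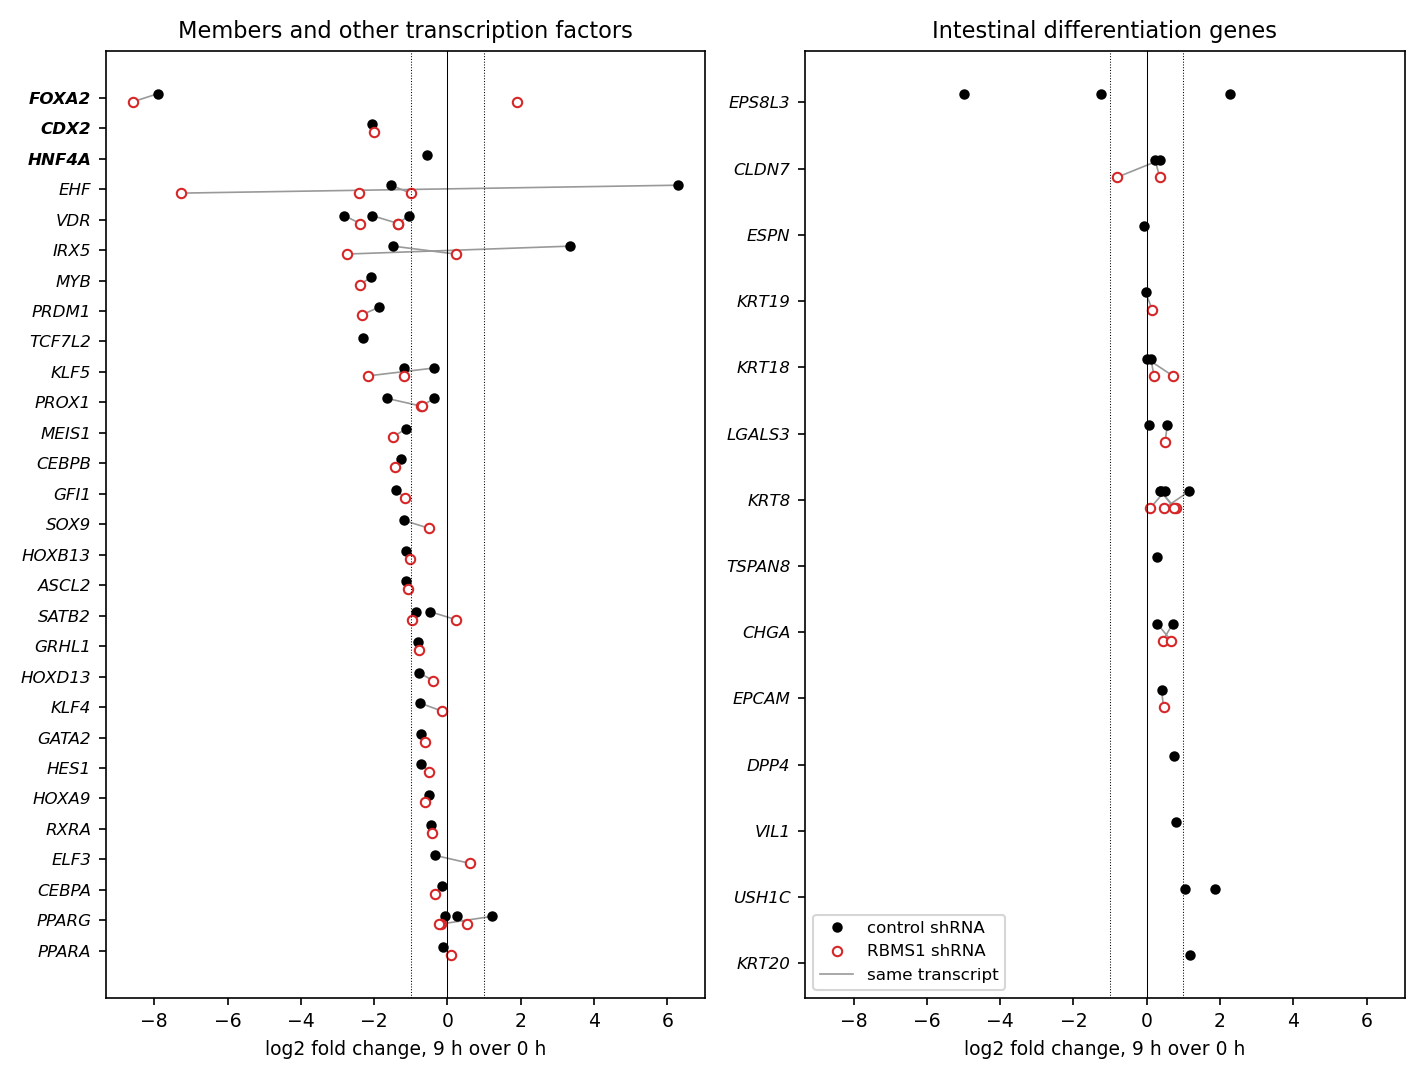
Values of every listed transcript on the x axis (log2 fold change, 9 h over 0 h) for the 3 members in bold, GATA2 and the other transcription factors (left) and the differentiation genes (right). Filled points are control cells, open points knockdown cells, grey lines join the same transcript, and dotted lines mark a size of 1; most transcription factors lie left of 0 and most differentiation genes right of it.

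Genes listed for the differentiated intestinal epithelium, which include known targets of CDX2 and HNF4A beside general epithelial genes, lay elsewhere where they had a value. Of 56 on the list, drawn up with earlier results of these data known, 14 had a value. Of their 24 control transcripts 2 were at -1 or below, 8.33% beside 13.8% of all, and both were of EPS8L3. In knockdown cells it was 0 of 13, beside 12.9% of all, and in control cells the same 13 transcripts also gave 0. Those 13 came from 7 genes, CHGA, CLDN7, EPCAM, KRT8, KRT18, KRT19 and LGALS3, with 4 from KRT8 alone. VIL1, DPP4, KRT20, USH1C, ESPN, EPS8L3 and TSPAN8 had no value in knockdown cells. The medians of the listed transcripts were 0.38 in control and 0.46 in knockdown cells, over 24 and 13 transcripts, so they do not compare the same set. Relative to ribosomal protein mRNAs, a reference that lowers the median of all transcripts to -0.45 in control and -0.42 in knockdown cells, the medians of this list became -0.03 and 0.08, while those of the other transcription factors were -1.24 and -1.26. With that reference the control split of differentiation transcripts at -1 or below and at 1 or above went from 2 and 5 of 24 to 2 and 2. Of all control transcripts 13.8% and 8.32% lay there before, and 24.7% and 5.21% with that reference. On the same reference CDX2 was at -2.47 and -2.39. Among the 7 genes of this list with a value in both populations, KRT8, an epithelial keratin, was highest by the mean of both. Its values were 0.61 and 0.52 over 4 transcripts in the authors' deposited tables. LGALS3, the lectin galectin-3, came next with 0.56 and 0.50 in the authors' deposited tables. Lowest of those 7 genes were the keratin KRT19 at -0.03 and 0.15 and the claudin CLDN7 at 0.29 and -0.23 in the authors' deposited tables. KRT18, the partner of KRT8, had the highest centred difference, 0.41 over 2 transcripts. The lowest by that measure were CLDN7 at -0.50 and KRT8 at -0.06. By transcript, 1 of 13 had a centred difference of 1 or more in size, 7.69% beside 17.6% of all.

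**Figure D4:**
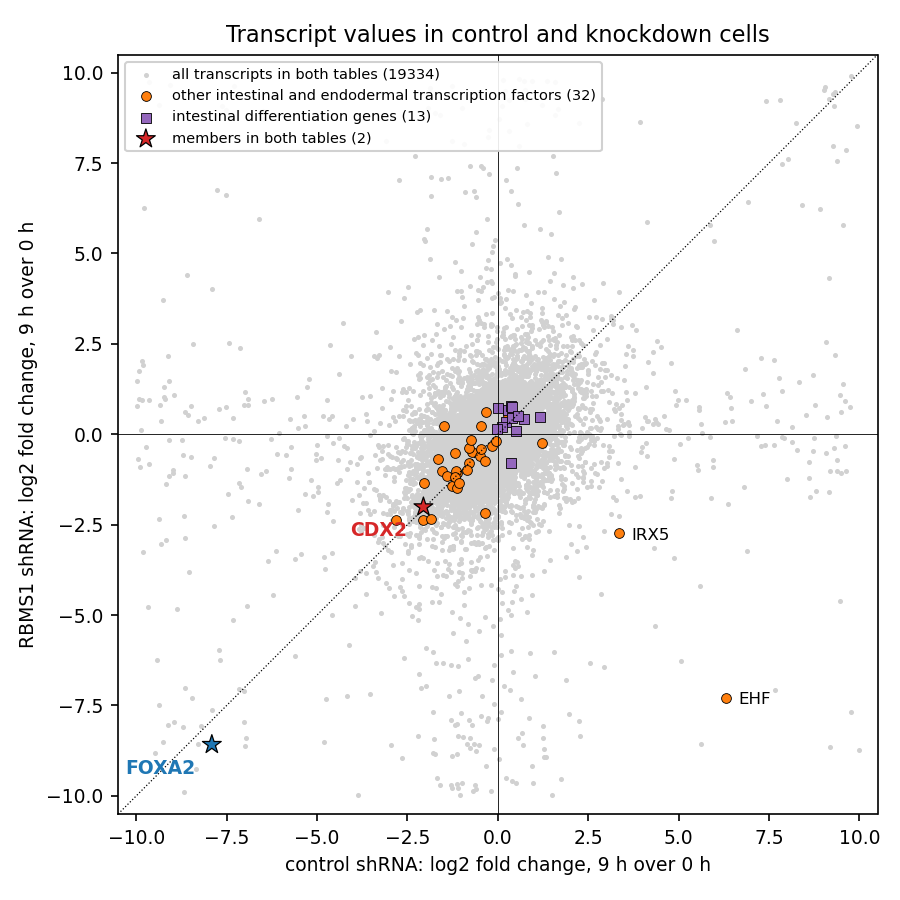
Each point is a transcript in both tables, with its log2 fold change in control cells on the x axis and in RBMS1 knockdown cells on the y axis; the dotted line marks equal values. CDX2 and FOXA2 NM_021784 (stars) lie near that line at -2.06 and -7.91 on the x axis, the other transcription factors (circles) mostly below 0 and the differentiation genes (squares) mostly above it, with EHF and IRX5 far off the line.

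HNF4A also shared with the differentiation genes that its value came from control cells alone. Of the 14 differentiation genes with a value, 7 had one in control cells only, which is 50.0% beside 4.31% of all 13091 genes of the control table. None had one in knockdown cells only, but the share of all genes with that pattern was not worked out. The 7 were DPP4, EPS8L3, ESPN, KRT20, TSPAN8, USH1C and VIL1. VIL1, DPP4, ESPN, USH1C and EPS8L3 encode villin, a brush-border peptidase and proteins of actin bundles or microvilli, and KRT20 is a keratin of mature enterocytes. Of the 25 other transcription factors, TCF7L2, the nuclear effector of Wnt signalling, alone had this pattern, at -2.31 in the authors' deposited table. By transcript it was 11 of 24 for the differentiation genes (45.8%), 2 of 34 for the transcription factors (5.88%) and 1 of 3 for the members, beside 9.35% of all control transcripts. KRT20 was at 1.17, VIL1 at 0.80, DPP4 at 0.76 and TSPAN8 at 0.27 in the authors' deposited table for control cells. EPS8L3 had transcripts at -4.98, -1.24 and 2.28 in the authors' deposited table, again on both sides of 0. The rule by which a transcript got a value is not stated, so a missing value shows neither a lower level nor a change in stability in knockdown cells.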

How the data were processed

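Per the file headers, each of the 2 deposited tables, 1 per shRNA, pairs RefSeq accessions with log fold changes. The submitters' processing notes name STAR 2.5, Cufflinks, Cuffdiff and the build hg38, and log2 was assumed since Cuffdiff writes it. For roles, other versions, normalisation and the listing rule, nothing is given in the sources used here. The deposited log2 values lie within 10 of 0, none is exactly 0, and depth is unknown.

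Accessions were paired with symbols through the RefSeq gene table (GRCh38.p14, 22132 of 22468) and GENCODE 29 (205); 131 stayed without one. Differences were knockdown minus control per transcript, centred on the median. Sizes of 1 (2-fold) were counted. Python 3.11.15, pandas 2.3.3 and numpy 2.4.6 were used, and the counting was tested on simulated data. Members and lists were chosen with earlier results of these data known. Named were the members, all paralogs, the 2 lowest and 2 highest genes of each list by mean and by difference over shared transcripts, and the 2 nearest to a member. Genes named for disagreeing transcripts or a value in 1 table, VDR, and the counts at -7 and between -3 and -2, were chosen after seeing the values. Motif shares used 17679 3′UTRs of at least 20 bases, 89.7% of coding accessions. Alternatives were gene means, the transcript nearest 0, ribosomal protein mRNAs as reference, other sizes, no centring and shared transcripts alone.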

Additional observations from a re-analysis of the deposited data

How the results depend on the processing

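No paired analysis was possible because the deposited tables hold no values per library, and for the same reason no replicate could be left out. For the members, the control count of 2 of 3 stayed within 1.5 times under all alternatives, but it became 3 of 3 at a size of 0.5. With 3 transcripts no rise could go past that factor. The knockdown count of 2 became 1 with the transcript nearest 0, where FOXA2 reads 1.90 in place of -8.58; the FOXA2 mean over both transcripts is -3.34, which turns the sign of NM_153675. The count of differences, 0, became 1 at a size of 0.5 (FOXA2). For the other transcription factors, the control count of 16 became 10 with gene means and 4 at a size of 2, the knockdown count of 16 became 10 with the transcript nearest 0 and 7 at a size of 2, and the 5 differences became 2 with gene means, 12 at 0.5 and 2 at 2. Gene-level settings test 25 or 24 genes in place of 34 transcripts, or 23 in place of 32. For the differentiation genes, the control count of 2 became 1 with gene means, with the transcript nearest 0 and at a size of 2, and 0 with shared transcripts alone. Their knockdown count of 0 became 1 relative to ribosomal protein mRNAs and at 0.5, and their 1 difference of 13 became 0 with gene means, 3 at 0.5 and 0 at 2. Of 51 alternative counts, 33 stayed within 1.5 times. Relative to ribosomal protein mRNAs, 22.5% of all knockdown transcripts were at -1 or below. For the other alternatives the share over all transcripts or genes was not worked out. Those counts therefore show only how the lists depend on the setting and not how they differ from the background.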
